A study of Drosophila melanogaster with 12 samples.

Results

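Genes for proteins of the cytosolic ribosome were followed in RNA sequencing of early Drosophila melanogaster embryos. Members were all genes whose symbol begins with RpL or RpS followed by a digit or by P, which gave 89 of the 14161 genes in the count tables, 53 for the large and 36 for the small subunit. Of these, 81 (49 large, 32 small) had a mean of at least 50 counts in at least 1 group and were tested among 6884 genes. Whole embryos of 2 genotypes were collected under 2 stage labels, with 3 libraries described as biological triplicates in each of the 4 groups. The controls were OregonR wild type. The mutant embryos came from germline clones of SHMT[X238], in which the oocyte and nurse cells are homozygous within a heterozygous female whose other tissues, follicle cells included, keep a functional copy. X238 is a point mutation that gives a premature stop in SHMT (CG3011), an X-linked gene for serine hydroxymethyl transferase, which interconverts serine and glycine and feeds one-carbon metabolism. The mutant X chromosome was isolated in a screen and is not the OregonR chromosome, so the allele and other differences between the strains cannot be told apart in these libraries. The labels are 0–1 hr (preblastoderm) and 1.5–2.5 hr (late blastoderm). The question here was whether the ribosomal protein RNAs differed between the genotypes at either label.

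A cytosolic ribosome is built from a large and a small subunit, each made of ribosomal RNA and many proteins, most of them needed in equal numbers. Their mRNAs are among the most abundant in growing cells and share a short pyrimidine-rich start, and they are controlled together in transcription and in translation. A Drosophila egg is loaded with ribosomes and with ribosomal protein mRNA by the mother, and the embryo starts to transcribe its own genes at the blastoderm stage. Several of the genes have a second copy in the fly genome, often with high levels in the germline.

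The libraries held 21045142 to 35106444 counts in genes, with 4.57 to 11.7% of reads outside genes. That share was over 11% in 2 libraries, replicate 1 of each genotype at the 0–1 hr label. The stage labels ran against the stage markers in both genotypes. The 15 zygotic markers (eve, ftz, slam and others) summed to 8643 to 12406 CPM in wild type at the 0–1 hr label, where the SHMT sums were 4769 to 8791 CPM. Under the 1.5–2.5 hr label the sums were 161 to 280 CPM over both genotypes. The 10 maternal markers summed to 807 to 1354 CPM under the 0–1 hr label and 2395 to 3300 CPM under the other. CPM is the usual count scaled for depth, here on TMM-scaled library sizes (TMM evens out libraries of unlike composition). Of the maternal markers, 9 of 10 were lower at the 0–1 hr label in wild type, and twe was higher. Groups are therefore named by label only, and if the labels were exchanged every value given for one label would belong to the other collection. At the 0–1 hr label SHMT RNA itself stood at 3.38, 4.18 and 4.67 CPM (wild type) against 5.57, 6.49 and 7.37 CPM (mutant). At the other label the same gene had 77.5, 87.2 and 88.2 CPM against 123, 91.5 and 102 CPM. A point mutation need not lower the RNA, so these levels are no check of the genotype labels. Eggshell markers summed to at most 4.74 CPM in any library with none of 14 tested, and 13 testis markers to 7.10 to 28.6 CPM with 1 tested (bol).

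The ribosomal protein genes took a large share of every library, and the share was higher under the 0–1 hr label. In wild type they held 13.4, 14.3 and 15.9% of all counts in genes at the 0–1 hr label and 7.73, 7.79 and 7.86% at the 1.5–2.5 hr label. In SHMT they held 13.8, 14.1 and 14.3% at the 0–1 hr label and 7.72, 7.80 and 8.49% at the other. The labels did not overlap in either genotype, while the SHMT libraries lay within the wild-type range at the 0–1 hr label. With TMM-scaled library sizes the members' sum at the 0–1 hr label was 180132 ± 10407 CPM for wild type (SD, n = 3). For SHMT it was 149827 ± 6397 CPM, and the ranges did not overlap. At the 1.5–2.5 hr label the sums were 67620 ± 421 and 70029 ± 4477 CPM, with overlapping ranges. The genotypes thus parted at the 0–1 hr label on the scaled sum and not on the plain share. In libraries of pooled whole embryos, a different mix of stages and a different RNA level within an embryo cannot be told apart.

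**Figure D1:**
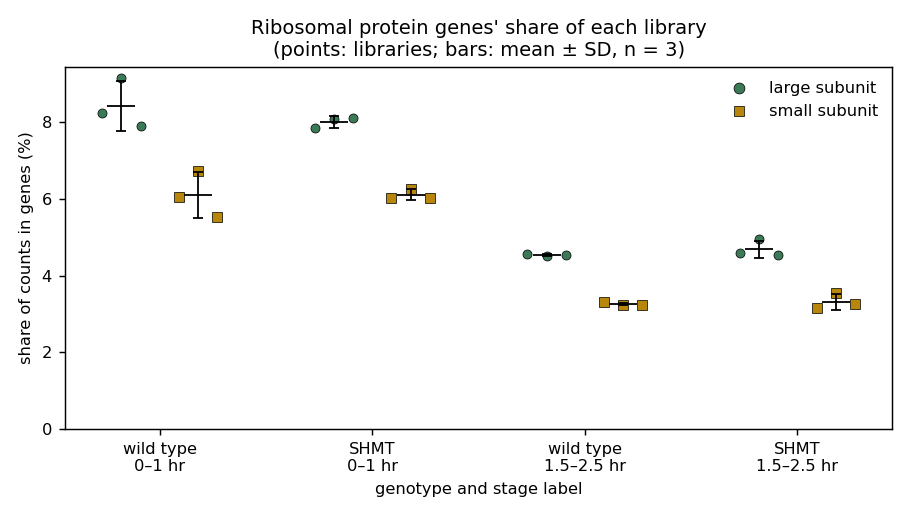
Share of the counts in genes (percent) taken by large-subunit (circles) and small-subunit (squares) genes in each library, by genotype and stage label, with bars for the mean ± SD of 3 libraries. Every library labelled 0–1 hr lies above every library labelled 1.5–2.5 hr for both subunits, with large-subunit shares of 7.83 to 9.13% against 4.50 to 4.94%.

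Both subunits moved together between the labels. Large-subunit genes held 1.38 ± 0.0396 counts for each small-subunit count in wild type at the 0–1 hr label and 1.39 ± 0.00977 at the other. In SHMT the ratio was 1.31 ± 0.0288 at the 0–1 hr label, where it ranged from 1.29 to 1.34 against 1.36 to 1.43 in wild type, and 1.41 ± 0.0349 at the 1.5–2.5 hr label. Among the members the ratio was thus lowest in the mutant libraries labelled 0–1 hr, which did not overlap with wild type. The sums leave out ribosomal proteins with other symbols. Of these, small-subunit sta had 1830 ± 388 CPM in SHMT and 3473 ± 377 CPM in wild type at that label. Small-subunit sop had 2490.5 ± 322 and 3939 ± 366 CPM, and large-subunit Qm 4443 ± 160 and 4653 ± 544 CPM. The lower ratio is therefore not shown for the whole subunits. The ratio is a description of sums and was not tested.

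The levels of single genes spread widely. Compared per kb of exon (exon lengths from the BDGP6 annotation, matched for 80 of the 81 tested members), RpL41 stood highest, at 11516 ± 957 CPM per kb for wild type under the 0–1 hr label and 4418 ± 166 CPM per kb under the other. RpL41 encodes the smallest of the ribosomal proteins. RpL27A followed at 5234 ± 406 CPM per kb in wild type at the 0–1 hr label, then RpS3A at 5166 ± 622 CPM per kb, which did not differ from it beyond their spread. RpL21 (4679 ± 459 CPM per kb), RpS18 (4554 ± 450 CPM per kb) and RpL39 (4369 ± 252 CPM per kb) came next and also overlapped with each other. RpL39 lines the tunnel through which the new protein leaves the ribosome. The median member stood at 2415 CPM per kb in that group, against 17.2 CPM per kb for all genes with a length. Members took 68 of the 100 highest places per kb in wild type and 66 in SHMT at the 0–1 hr label, and 61 in each genotype at the 1.5–2.5 hr label. At the low end stood RpLP0-like with 156 ± 7.65 CPM per kb and RpS15Ab with 183 ± 15.1 CPM per kb, each far below the gene it is paired with here. RpLP0-like resembles yeast Mrt4, a factor that helps to assemble the stalk of the large subunit.

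**Figure D2:**
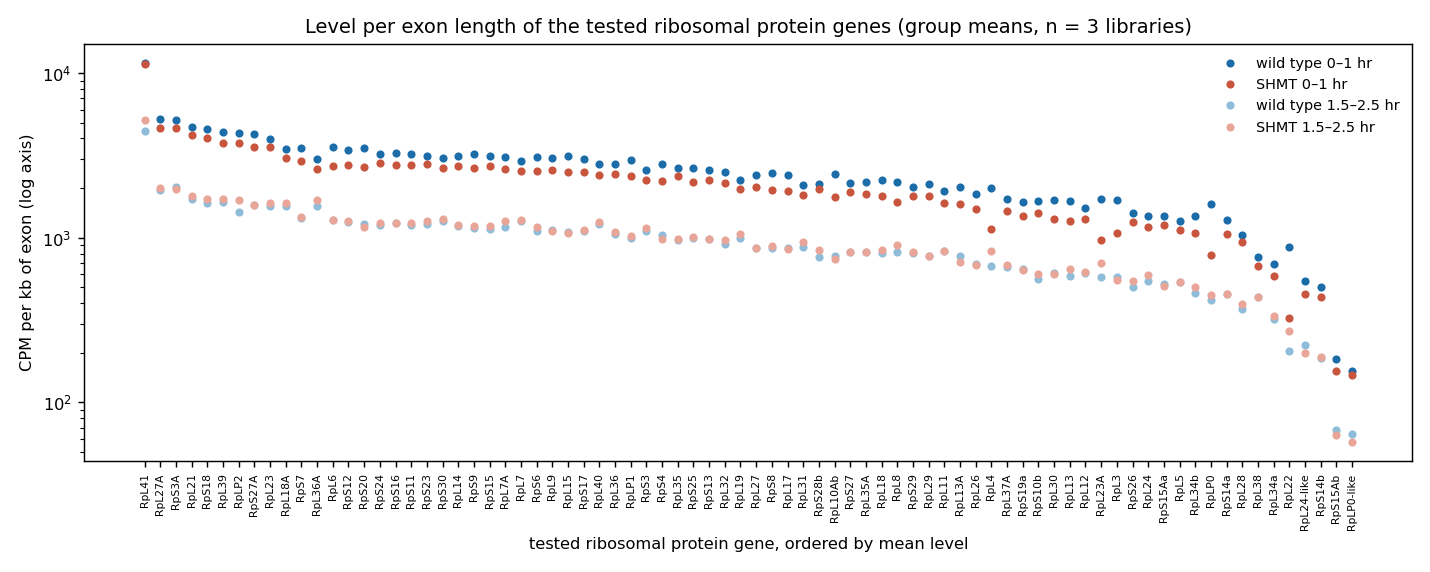
Level of 78 tested ribosomal protein genes with an exon length, in CPM per kb of exon on a log axis, ordered by the mean over the 4 groups (points are group means of 3 libraries). RpL41 stands apart at the top, RpS15Ab and RpLP0-like at the bottom, and the points for RpL22, RpLP0, RpL4, RpL23A and RpL3 in SHMT at 0–1 hr fall below their wild-type points by more than those of the other genes.

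Of the 89 members 8 hardly appeared in these embryos, each of them a low copy beside a paralog that was tested. RpL10Aa, RpL22-like, RpL37b, RpL7-like, RpS10a, RpS19b, RpS28-like and RpS28a stayed under a mean of 50 counts in every group. RpS28a had 0 counts in all 12 libraries, which allows up to 3 counts in each. RpS19b, known from the germline, had 11 to 35 counts in each library, and RpS19a, its common copy, was tested. RpL22-like had 25 counts in replicate 3 of wild type labelled 1.5–2.5 hr and 1 to 7 counts in the other 11 libraries. The remaining 5 had at most 7 counts in any library. RpL10Ab, RpL22, RpL37a, RpL7, RpS10b and RpS28b, the partners of the low copies, were all well above the minimum.

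Between the labels the whole set shifted as a block in wild type. All 81 tested members were higher under the 0–1 hr label and 0 were lower (edgeR quasi-likelihood test, Benjamini-Hochberg over all genes tested, adjusted p under 0.05). DESeq2 also called 81 higher and 0 lower, and at an unadjusted p under 0.05 the lower count in edgeR was 0 too. Among all genes tested, 45.9% were higher and 45.4% lower in that comparison. The members' median difference was 1.43 on the log2 scale, a 2.69-fold higher CPM, against 0.04 for all genes. CPM is relative to the other RNAs of a library, so a change in the amount per embryo was not measured. The middle 50% of members lay between 1.36 and 1.48, so most genes moved by close to the same factor. The medians were 1.43 for both large- and small-subunit genes. With library sizes alone, without TMM, the members' median was 0.91 and that of all genes −0.48, with 80 members higher.

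At the edges of this narrow band stood a few large-subunit genes. RpL22, an RNA-binding large-subunit protein, had 909, 819 and 1182 CPM at the 0–1 hr label and 265, 226 and 179 CPM at the 1.5–2.5 hr label in wild type. The labels did not overlap, and the difference was 2.12 ± 0.27 (log2 ± SE, adjusted p = 9.13e-06, edgeR). RpLP0, the base of the stalk that recruits translation factors, had 1843, 2254 and 2255 CPM against 518, 567 and 573 CPM, a difference of 1.94 ± 0.16 (adjusted p = 1.17e-07, edgeR). RpL10Ab, a protein of the mobile L1 stalk, followed with 1.65 ± 0.07 (adjusted p = 5.26e-10, edgeR). The smallest differences were those of RpL38 (0.80 ± 0.14, adjusted p = 0.000115, edgeR) and RpL36A (0.96 ± 0.06, adjusted p = 1.93e-08, edgeR), both chosen after their values were seen. RpL38 had 879, 761 and 679 CPM at the 0–1 hr label and 444, 485 and 400 CPM at the other. Its labels did not overlap either, but the call was lost with library sizes alone (0.29, adjusted p = 0.0635, edgeR).

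In SHMT the set moved the same way between the labels. The comparisons of labels and of genotypes share libraries and are not independent of each other. In the mutant 79 of 81 members rose and 0 fell at the 0–1 hr label (edgeR, with 0 lower at an unadjusted p under 0.05 and 0 by DESeq2), where 44.6% of all genes were higher and 42.8% lower. The median was 1.15 on the log2 scale (2.22-fold), against 0.06 for all genes, and it was 0.87 with library sizes alone. RpL22 (0.26 ± 0.26, adjusted p = 0.367, edgeR) and RpL4 (0.44 ± 0.22, adjusted p = 0.0773, edgeR) were the 2 members that did not pass. Among the largest rises were those of RpLP0-like at 1.35 ± 0.08 (adjusted p = 1.92e-08, edgeR) and RpS15Ab at 1.28 ± 0.09 (adjusted p = 3.15e-08, edgeR). For RpL22 the mutant libraries held 266, 261 and 538 CPM at the 0–1 hr label and 332, 294 and 266 CPM at the other. These ranges overlapped, whereas the wild-type ranges for the same gene lay far apart.

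**Figure D3:**
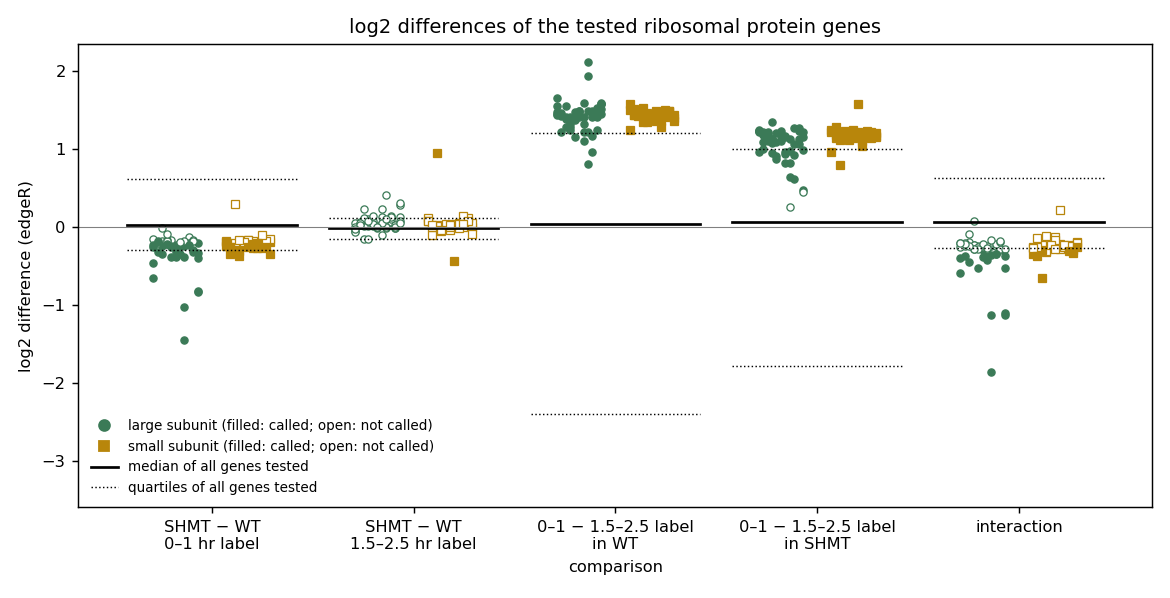
log2 differences (edgeR, y axis) of the 81 tested members in the 5 comparisons (x axis), large subunit as circles and small subunit as squares, filled where the adjusted p is under 0.05, with the median (solid line) and quartiles (dotted lines) of all 6884 genes tested. Members sit in a narrow band around 1.43 and 1.15 between the labels, and a few large-subunit genes drop away from the band in SHMT against wild type at the 0–1 hr label (median −0.23) and in the interaction (median −0.26).

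Between the genotypes at the 0–1 hr label most members were a little lower in SHMT, and 5 large-subunit genes were lower by more than 0.5 on the log2 scale. In edgeR 55 of 81 members were lower (35 of 49 large, 20 of 32 small) and 0 higher, where 25.8% of all genes tested were lower and 32.9% higher. The higher count was also 0 at an unadjusted p under 0.05 and by DESeq2. The median difference was −0.23 on the log2 scale, against 0.02 for all genes, and the middle 50% of members lay between −0.30 and −0.19. None passed the 4-fold limit that the study set for genotype. The small shift rested on the scaling, since with library sizes alone the median of members was −0.01 and that of all genes 0.25, with 6 members lower and 2 higher. Relative to all genes the members stood at −0.25 under TMM and at −0.26 with library sizes alone. The count of lower members was 28 without replicate 2 of wild type labelled 0–1 hr, 31 without replicate 1 of SHMT labelled 0–1 hr, and 19 once both libraries above 11% outside genes were left out.

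In each of 21 refits with another scaling, tool, count minimum, block or set of libraries, 6 of the 55 members were still called lower. These were RpL22, RpLP0, RpL4, RpL23A, RpL3 and RpL10Ab, all of the large subunit. RpL23A and RpL3 were chosen after their values were seen.

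RpL22 fell the most. The SHMT libraries held 266, 261 and 538 CPM, all below the wild-type libraries at 909, 819 and 1182 CPM. The difference was −1.45 ± 0.27 on the log2 scale, 2.73-fold lower (adjusted p = 0.000795, edgeR). Over the 21 refits the difference ranged from −1.88 to −1.24. As a share of the members' own counts, which needs no scaling between libraries, RpL22 took 0.427 to 0.688% in wild type and 0.177 to 0.342% in SHMT.

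RpLP0 had 983, 868 and 1266 CPM in SHMT against 1843, 2254 and 2255 CPM in wild type. Again every mutant library was below every wild-type library, with a difference of −1.03 ± 0.15 (adjusted p = 0.000185, edgeR). RpLP1 and RpLP2 are the other proteins of the same stalk. RpLP1 fell by far less, −0.33 ± 0.08 (adjusted p = 0.00386, edgeR), and RpLP2 did not pass the test (−0.20 ± 0.09, adjusted p = 0.0791, edgeR). RpLP2 stood at 1970, 2371 and 2453 CPM in SHMT and 2523, 2828 and 2446 CPM in wild type, so that its groups overlapped. The partners of RpLP0 in the stalk therefore did not show a fall of its size, although the difference between these genes was not tested.

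RpL4, which reaches into the exit tunnel, had 1301, 1201 and 2239 CPM in SHMT and 2415, 2499 and 3525 CPM in wild type (−0.83 ± 0.22, adjusted p = 0.00705, edgeR). RpL23A, at the mouth of that tunnel where chaperones dock, had 1066, 1077 and 1691 CPM against 1972, 2271 and 2563 CPM (−0.83 ± 0.17, adjusted p = 0.00168, edgeR). RpL3, which lies close to the site where peptide bonds are made, had 2136, 2100 and 2916 CPM against 3469, 3610 and 4198 CPM (−0.66 ± 0.12, adjusted p = 0.000731, edgeR). The groups did not overlap for any of the 3 genes. In all of the 5 genes that fell by more than 0.5 on the log2 scale, replicate 3 of SHMT was the mutant library nearest to wild type. Replicate 3 was also the highest of the wild-type libraries at this label for each of these genes, for RpLP0 by little (2255 against 2254 CPM). Replicate 3 was thus the highest library in both genotypes, and the reason was not tested.

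Replicate 3 of SHMT labelled 0–1 hr also differed from its group in other respects. Its counts differed from those of replicates 1 and 2 by 55.7 and 60.1 times what counting noise gives (chi-square per degree of freedom), while those 2 differed from each other by 11.6 times. The 3 wild-type libraries at this label differed from each other by 50.99, 61.6 and 62.7 times, so a value of this size is not particular to that library. Its zygotic markers summed to 8791 CPM, inside the wild-type range, against 4769 and 5086 CPM in replicates 1 and 2. Under this label 5 of the 15 zygotic markers fell in SHMT and 0 rose, and 4 of the 10 maternal markers rose and 0 fell, beside 25.8% of all genes lower and 32.9% higher. The part of these marker levels in the falls of RpL22, RpLP0, RpL4, RpL23A and RpL3 was not tested. Without replicate 3 the difference of RpL22 was −1.88, that of RpLP0 −1.19 and that of RpL4 −1.17, and 52 members were lower.

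**Figure D4:**
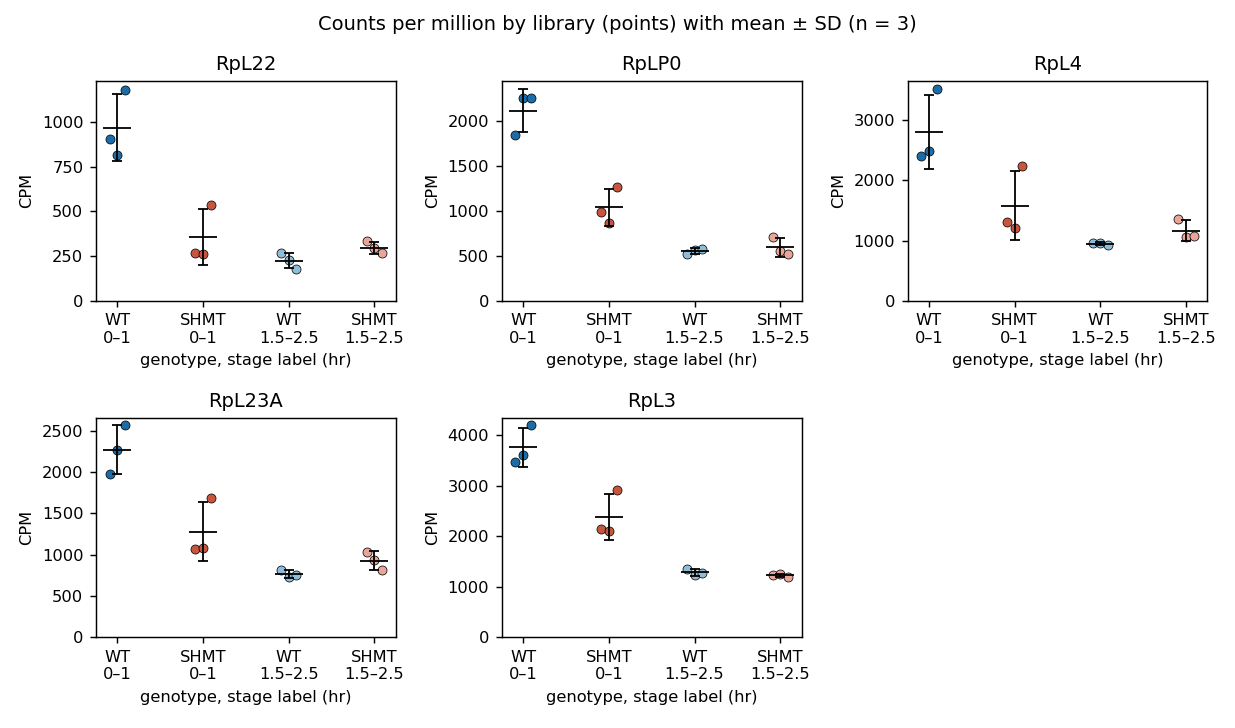
CPM in each of the 12 libraries (points) with the mean ± SD of 3 libraries for RpL22, RpLP0, RpL4, RpL23A and RpL3, by genotype and stage label. For each of the 5 genes every SHMT library at 0–1 hr lies below every wild-type library, as for RpL22 at 261 to 538 against 819 to 1182 CPM.

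RpL10Ab fell by less but with little spread. It had 1684, 1591 and 1780 CPM in SHMT and 2229, 2514 and 2229 CPM in wild type, a difference of −0.46 ± 0.07 (adjusted p = 0.000177, edgeR). RpL40 and RpS27A, the 2 ribosomal proteins made as fusions with ubiquitin, stayed near the median of the set, at −0.23 ± 0.07 (adjusted p = 0.0191, edgeR) and −0.26 ± 0.09 (adjusted p = 0.0273, edgeR). RpL40 had 1505, 1592 and 1616 CPM in SHMT and 1819, 1968 and 1730 CPM in wild type. Of the 6 genes highest per kb, RpL27A (−0.18) and RpL39 (−0.22) were called lower, while RpS3A (−0.17), RpL21 (−0.16), RpS18 (−0.18) and RpL41 (−0.02) did not pass. With library sizes alone all 6 turned positive, RpL27A to 0.05, RpL39 to 0.004, RpS3A to 0.06, RpL21 to 0.06 and RpS18 to 0.04, and RpL41 was then called higher at 0.21 (adjusted p = 0.0464, edgeR). RpL7 (−0.20) turned to 0.03.

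A further 5 ribosomal proteins carry other symbols in the files and were looked at after the tables had been seen. The gene sta, the fly form of RpSA, had 1688, 1533 and 2270 CPM in SHMT against 3042, 3633 and 3744 CPM in wild type at the 0–1 hr label (−0.92 ± 0.14, adjusted p = 0.000195, edgeR). The gene sop, or RpS2, had 2370, 2246 and 2856 CPM against 3519, 4189 and 4108 CPM (−0.66 ± 0.10, adjusted p = 0.000188, edgeR), and Rack1, a scaffold on the small subunit, differed by −0.52 ± 0.09 (adjusted p = 0.000403, edgeR). Qm, or RpL10 (−0.07, adjusted p = 0.57, edgeR), and oho23B, or RpS21 (−0.15, adjusted p = 0.107, edgeR), did not pass. Falls of over 0.5 were therefore seen in small-subunit genes too once these 5 were counted.

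At the 1.5–2.5 hr label the genotypes differed in only 2 of the 81 members. In edgeR 1 member rose and 1 fell in SHMT, where 2.85% of all genes tested were higher and 4.15% lower. The median of members was 0.03 on the log2 scale, and that of all genes −0.02. At an unadjusted p under 0.05 there were 4 higher and 1 lower, and DESeq2 gave 1 and 1. RpL22 (0.41 ± 0.26, adjusted p = 0.463, edgeR), RpL4 (0.30 ± 0.22, adjusted p = 0.535, edgeR) and RpLP0 did not pass at this label. RpLP0 had 709, 553 and 514 CPM in SHMT and 518, 567 and 573 CPM in wild type, with overlapping ranges.

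The balance between the genes of a paralog pair can be read within a library, where no scaling enters. Of the 5 pairs described here, 1 passed the test between the labels, which averages over the genotypes. RpL34a made up 26.2, 25.4 and 24.98% of the pair in wild type and 29.1, 27.5 and 24.3% in SHMT at the 0–1 hr label. It made up 31.3, 33.7 and 30.4% and 30.0, 31.2 and 31.4% at the 1.5–2.5 hr label. The labels did not overlap in either genotype, with a log2 ratio lower by −0.36 at the 0–1 hr label (exact two-sided permutation test within genotypes, p = 0.005, the smallest that 400 regroupings can give, and 0.03 after Benjamini-Hochberg over 12 tests of 6 pairs). The genotypes differed by 0.02 (exact p = 0.77). RpL24 against RpL24-like differed by 0.15 between the genotypes over both labels, with p = 0.04 in the exact permutation test and 0.16 after adjustment. At the 0–1 hr label the mean log2 ratio was 2.05 in SHMT and 2.03 in wild type. Under the other label the means were 2.27 and 2.00, and RpL24 made up 82.2 to 83.5% of the pair in SHMT and 78.9 to 80.6% in wild type, without overlap. In SHMT its share at the 0–1 hr label, 80.1 to 81.2%, also lay apart from that at the other label, while the wild-type ranges overlapped. No test was run within a label or within a genotype. RpL24-like resembles yeast Rlp24, an assembly factor that is later exchanged for the ribosomal protein itself. RpLP0 against RpLP0-like parted between the genotypes at the 0–1 hr label and overlapped at the other. At the 0–1 hr label the mean log2 ratio was 2.89 in SHMT and 3.84 in wild type, and RpLP0 made up 86.1 to 90.4% and 92.5 to 94.2% of the pair, without overlap. At the 1.5–2.5 hr label the ratio was 3.43 in SHMT and 3.18 in wild type, with overlapping shares. The higher SHMT mean rested on replicate 1 (3.83), with 3.22 and 3.25 in replicates 2 and 3 against 3.15, 3.24 and 3.15 in wild type. Between the labels the wild-type share of RpLP0 was 92.5 to 94.2% at 0–1 hr and 89.9 to 90.4% at 1.5–2.5 hr, without overlap. In SHMT the mean log2 ratio went the other way, 2.89 against 3.43, with overlapping shares. Each test averages over the other factor, so opposite changes offset each other. The tests gave −0.35 between the genotypes (exact p = 0.19, adjusted p = 0.3) and 0.06 between the labels (exact p = 0.795). For RpS14a with RpS14b and RpS15Aa with RpS15Ab the mean differences were −0.05 to 0.07 and none passed (exact p from 0.075 to 0.45). The minor copies RpS14b and RpS15Ab made up 21.1 to 22.0% and 8.72 to 9.44% of their pairs in the group means. Copies as alike as these can share reads, so their split depends on how ambiguous alignments were counted.

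**Figure D5:**
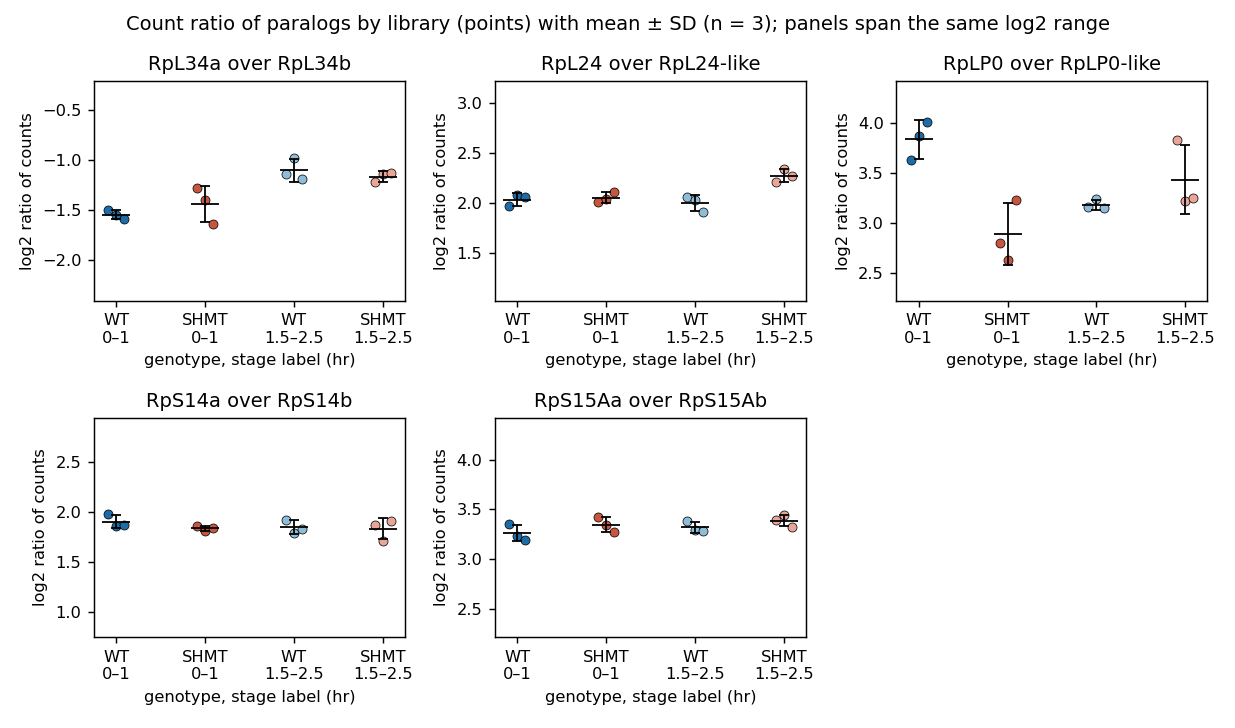
log2 ratio of the counts of 2 paralogs in each library (points) with the mean ± SD of 3 libraries for 5 of the pairs in which both genes were tested, by genotype and stage label, with y axes of equal span. RpL34a over RpL34b is lower at 0–1 hr (means −1.54 and −1.44 against −1.101 and −1.16).

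The difference between the genotypes was itself compared between the labels. In this interaction, the SHMT minus wild-type difference at 0–1 hr less that at 1.5–2.5 hr, 26 of 81 members were lower (18 large, 8 small) and 0 higher, where 12.2% of all genes tested were lower and 26.3% higher. The higher count was also 0 at an unadjusted p under 0.05 and by DESeq2. The median of members was −0.26 on the log2 scale, against 0.05 for all genes. RpL22 (−1.86 ± 0.37, adjusted p = 0.00253, edgeR), RpL4 (−1.13 ± 0.31, adjusted p = 0.0137, edgeR) and RpLP0 (−1.13 ± 0.21, adjusted p = 0.00186, edgeR) had the largest values, followed by RpL23A (−1.11 ± 0.24, adjusted p = 0.00423, edgeR). These 4 were called in each of 20 refits. The count of 26 was 69 by DESeq2, 59 with RLE scaling and 4 with library sizes alone, and it was sensitive to single libraries. It was 13 without replicate 1 and 16 without replicate 2 of SHMT labelled 0–1 hr, 14 without replicate 2 and 43 without replicate 1 of SHMT labelled 1.5–2.5 hr, 17 without replicate 2 of wild type labelled 0–1 hr, and 15 without either replicate 2 or replicate 3 of wild type labelled 1.5–2.5 hr.

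Members on the major chromosome arms had like medians in the genotype comparison at the 0–1 hr label. The 13 tested members on the X chromosome had a median difference of −0.23, those on 2L −0.23 (15 genes), on 2R −0.19 (19 genes), on 3L −0.32 (13 genes) and on 3R −0.25 (19 genes). All genes tested on the X had a median of 0.03. The 5 large falls were spread, with RpL22 on the X and RpLP0 and RpL23A on 3L, while RpL3 and RpL4 lie on 3R. Across the 80 members with a length, the difference and the exon length correlated at a Spearman's rho of −0.25, as a description over genes that share libraries.

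Other genes of ribosome production were called in both directions. Of 28 genes for ribosome biogenesis and RNA polymerase I in the files, 8 rose and 7 fell in SHMT at the 0–1 hr label, with a median of 0.03 against 0.02 for all genes. These counts lie near those over all genes tested, of which 32.9% were higher and 25.8% lower. Tif-IA, an initiation factor of RNA polymerase I, was higher by 1.40 ± 0.16 (adjusted p = 2.44e-05, edgeR), and RpI135, a subunit of that polymerase, by 1.01 ± 0.18 (adjusted p = 0.000629, edgeR). The gene eIF6, whose product keeps the new large subunit from joining too early, was lower (−1.21 ± 0.10, adjusted p = 2.29e-06, edgeR). One of the 8 that were higher, Rrp1, is a DNA repair enzyme that shares its symbol with a yeast biogenesis factor. At the 1.5–2.5 hr label 0 rose and 2 fell. Between the labels 16 rose and 11 fell at 0–1 hr in wild type, beside 45.9% and 45.4% of all genes. In SHMT 16 rose and 10 fell, beside 44.6% and 42.8%, and the interaction held 9 higher and 2 lower, beside 26.3% and 12.2%.

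Regulators of ribosomal protein genes and of growth were also called in both directions. Of 17 such genes, 8 rose and 7 fell in SHMT at the 0–1 hr label, beside 32.9% of all genes higher and 25.8% lower. Thor, the fly 4E-BP that restrains cap-dependent translation, was higher (0.91 ± 0.13, adjusted p = 0.000154, edgeR), as was Tbp, the TATA-binding protein (0.94 ± 0.17, adjusted p = 0.000667, edgeR). Trf, a relative of Tbp, was lower at the 0–1 hr label (−0.67 ± 0.10, adjusted p = 0.00017, edgeR), and it was the 1 of 17 that was lower at the 1.5–2.5 hr label (−0.67 ± 0.10, adjusted p = 0.0012, edgeR), where 0 were higher. Tsc1, an inhibitor of the growth kinase Tor, was lower (−0.71 ± 0.13, adjusted p = 0.000627, edgeR). Between the labels in wild type 7 rose and 9 fell at 0–1 hr, beside 45.9% and 45.4% of all genes, with 1.50 ± 0.07 for Dref (adjusted p = 1.66e-09, edgeR) and −4.02 ± 0.20 for dm, the fly Myc (adjusted p = 2.03e-09, edgeR). In SHMT 9 rose and 8 fell between the labels, beside 44.6% and 42.8% of all genes, and the interaction held 6 higher and 2 lower, beside 26.3% and 12.2%.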

How the data were processed

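RNA from whole embryos was sequenced in 12 libraries, 3 in each of 4 groups taken from the genotype and stage labels. The deposited values are raw counts of reads per gene, 1 table for each library. The submitters' processing notes list CASAVA 1.8.2, Bowtie2 2.1.0, HTSeq and the build dm3. The strand setting was not given in the sources used here. The 5 summary lines of each table stayed out of library sizes and tests, and the largest of them held 4.57 to 11.7% of reads (reads outside genes).

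Genes averaging 50 counts or more in any group were tested with edgeR 4.0.16 (limma 3.58.1, R 4.3.3), a quasi-likelihood fit to all 12 libraries with 4 group means and TMM scaling. Adjustment followed Benjamini-Hochberg across 6884 genes, with a call at an adjusted p under 0.05 at any fold. The p-values measure the spread between these samples only. Ratios of paralogs used counts plus 0.5 and an exact permutation test. Symbols were matched to the BDGP6 annotation for 87 members by current symbol and 1 by a synonym, and 1 (RpL37a) was not matched. No coordinates were used, and promoter and protein sequences were not analysed here.

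The members and gene lists were chosen with earlier results of these data known. The genes named are all paralogs of the pairs, the stalk and ubiquitin-fusion genes, the 3 largest rises and falls among calls in each comparison, the 6 highest per exon length, and up to 4 genes with the lowest adjusted p in each other list, and the results of 2 members are not reported here. The lists were ribosome biogenesis, regulators of ribosomal protein RNA and growth, maternal, zygotic, eggshell and testis markers. Alternatives were RLE scaling, library sizes alone, TMM without the members, DESeq2 1.42.0, other count minimums, an adjusted p under 0.01, a replicate block, fits of only the groups compared, and libraries left out. The fit was tested on simulated counts. Plots were made in Python 3.11.15 with matplotlib 3.10.9.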

Additional observations from a re-analysis of the deposited data

Results flagged for a closer look

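The effect of the SHMT genotype differed between the stage labels in 26 of the 81 tested members, all lower at the 0–1 hr label relative to the 1.5–2.5 hr label, by edgeR's interaction test with Benjamini-Hochberg adjustment over all genes tested. Among the named genes the interaction was −1.86 on the log2 scale for RpL22, −1.13 for RpL4 and −1.13 for RpLP0. It was −0.45 for RpL34b, −0.43 for RpLP2 and −0.41 for RpL10Ab. It was −0.37 for RpLP1, −0.36 for RpL24 and −0.36 for RpS10b. With library sizes alone 1 member was higher and 4 were lower, which were RpL22, RpL4, RpLP0 and RpL23A, so the other lower calls were lost under that scaling. Groups of 3 libraries were not tested for outlying samples.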

How the results depend on the processing

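Of the other values of the counts and medians, 298 stayed within 1.5 times or 1 SD of the main value and 29 moved further. With RLE scaling 59 members were lower in the interaction, and with DESeq2 69. With library sizes alone, the genotype difference at the 0–1 hr label had 2 members higher, 6 lower and a median of −0.00709, and RpL7 (0.0265), RpL27A (0.0472) and RpL39 (0.00418) changed sign. The medians between labels were then 0.91 in wild type and 0.87 in SHMT, and the interaction had 1 higher, 4 lower and a median of −0.0263. With every gene of at least 1 count there were 21 lower at the 0–1 hr label, a wild-type label median of 1.21 and 8 lower in the interaction. At an adjusted p under 0.01 these counts were 24 and 5. With only the groups compared, 3 members were higher at the 1.5–2.5 hr label, and the wild-type label median was 1.31. Once both libraries above 11% outside genes were left out, 1 member was higher and 19 lower at the 0–1 hr label. Leaving out 1 library gave 28 to 72 lower and 0 to 1 higher at the 0–1 hr label and 13 to 43 lower in the interaction. The causes were not tested. Over 18 same-numbered pairs of libraries the deviations correlated at r from −0.19 to 0.52, with 4 over 0.1. All of these were replicates 2 and 3 of the genotypes under the same label. There r was 0.234 and 0.161 at 0–1 hr and 0.497 and 0.524 at 1.5–2.5 hr. Replicate 1 gave −0.109 and −0.188. Unlike numbers reached 0.195 at 0–1 hr, above the 0.161 of replicate 3, and 0.285 at 1.5–2.5 hr. A pairing of these replicates is therefore not excluded, and the main fit used no block. With the replicate number as a block, 64 members were lower at the 0–1 hr label and 29 in the interaction. Reads shared by near-identical copies, an unknown strand setting and 3 libraries per group limit these values.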
